A study of Sus scrofa domesticus with 11 samples.

Results

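Heat shock proteins are molecular chaperones that hold, fold and sort other proteins in the cytosol and in mitochondria. Many of their genes are switched on by heat shock factor HSF1 when unfolded proteins build up, and the constitutive members are among the abundant transcripts of liver. The genes described here are the cytosolic chaperones HSPA8, HSP90AA1, HSP90AB1 and HSPH1, the J-domain co-chaperones DNAJB1 and DNAJA1, the small heat shock protein HSPB1, the co-chaperone BAG3, and the mitochondrial chaperonin HSPD1 with its partner HSPE1. They were chosen by symbol from 10 names. The deposited table of 22029 genes gives 9 of them under their symbol, with 1 row each. DNAJA1 has no symbol there and was matched by its gene identifier, ENSSSCG00000011000, so it is given beside the 9.

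The libraries are RNA from livers collected on day of life 15 from preterm Yorkshire piglets fed intravenously (parenteral nutrition). There were 5 libraries from piglets given SEFA-6179, a compound known by its code name, at 48 mg/kg, and 6 from piglets given MCT (medium-chain triglyceride), the vehicle control in equal volume, at 3 ml/kg. The comparison asks which liver transcripts the compound shifts relative to its vehicle. No source used here gives sex, litter or batch, and each library was taken as 1 animal.

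Library totals lay between 16821201 and 19215097 reads counted for SEFA-6179 and between 15974977 and 23416071 for MCT. All 12 hepatocyte markers looked for were in the table, and their summed level ran from 115541 to 220975 CPM with SEFA-6179 and from 90294 to 209671 CPM with MCT. CPM here are read counts scaled to library size after trimmed-mean (TMM) normalization. Among all tested genes, the first principal component set MCT replicate 5 apart, at 83.1 against -30.8 to 14.7 in the other 10 libraries. The fold change of each of the 10 heat shock genes is therefore given with and without that library. RNA of whole tissue cannot tell fewer cells of a type from less RNA per cell.

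No heat shock gene passed the test between SEFA-6179 and MCT. With edgeR (quasi-likelihood, p-values adjusted by Benjamini and Hochberg across the 13671 tested genes) 0 of the 10 had an adjusted p below 0.05, where 30 of all tested genes did (0.219%). At an unadjusted p below 0.05 there were 3, HSPE1, HSPD1 and HSP90AB1, against 10.8% of all tested genes. HSPE1 and HSPD1 had higher means with SEFA-6179 (5.24% of tested genes were higher at that p) and HSP90AB1 a lower one (5.52%). DESeq2 also called 0 of the 10 beside 276 genes in all (2.06%), and limma 0 beside 60. Each had 3 of the 10 at an unadjusted p below 0.05, against 12% of all genes for DESeq2 and 14.1% for limma. The adjusted p-values in the authors' deposited table were 0.143 or more for the 10, and 1.16% of its genes were below 0.05. Fold changes pointed up for 5 of the 10 (median log2 value -0.02), beside a median of -0.0015 over all tested genes. When MCT replicate 5 was left out, edgeR again called 0 of the 10 (0.221% of all tested genes) with 3 at an unadjusted p below 0.05 (12.3%), but 9 of the 10 then lay above 0, with a median of 0.32. With SEFA-6179 replicate 3 also left out, edgeR called 0 (0.533%), 3 had an unadjusted p below 0.05 (12.5%) and 4 of the 10 lay above 0.

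With all 11 libraries, the heat shock genes varied more between animals of 1 group than most genes did. Within groups the SD of log2 CPM was 0.70 for HSPA8, 0.81 for HSPH1 and 0.83 for BAG3, beside a median of 0.29 over all genes with a mean of at least 10 CPM. HSPD1 was the exception, at 0.12. Only 1.73% of those genes had a smaller SD than HSPD1, while 79.8% or more had a smaller SD than each of the other 9. Without MCT replicate 5, the SD of the MCT libraries as a share of their mean fell from 79.9% to 16.4% for HSPB1. It fell from 41.7% to 10.1% for HSP90AA1, and rose only for HSP90AB1, from 35.3% to 38.3%. The comparison with all genes was not made without that library.

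**Figure D1:**
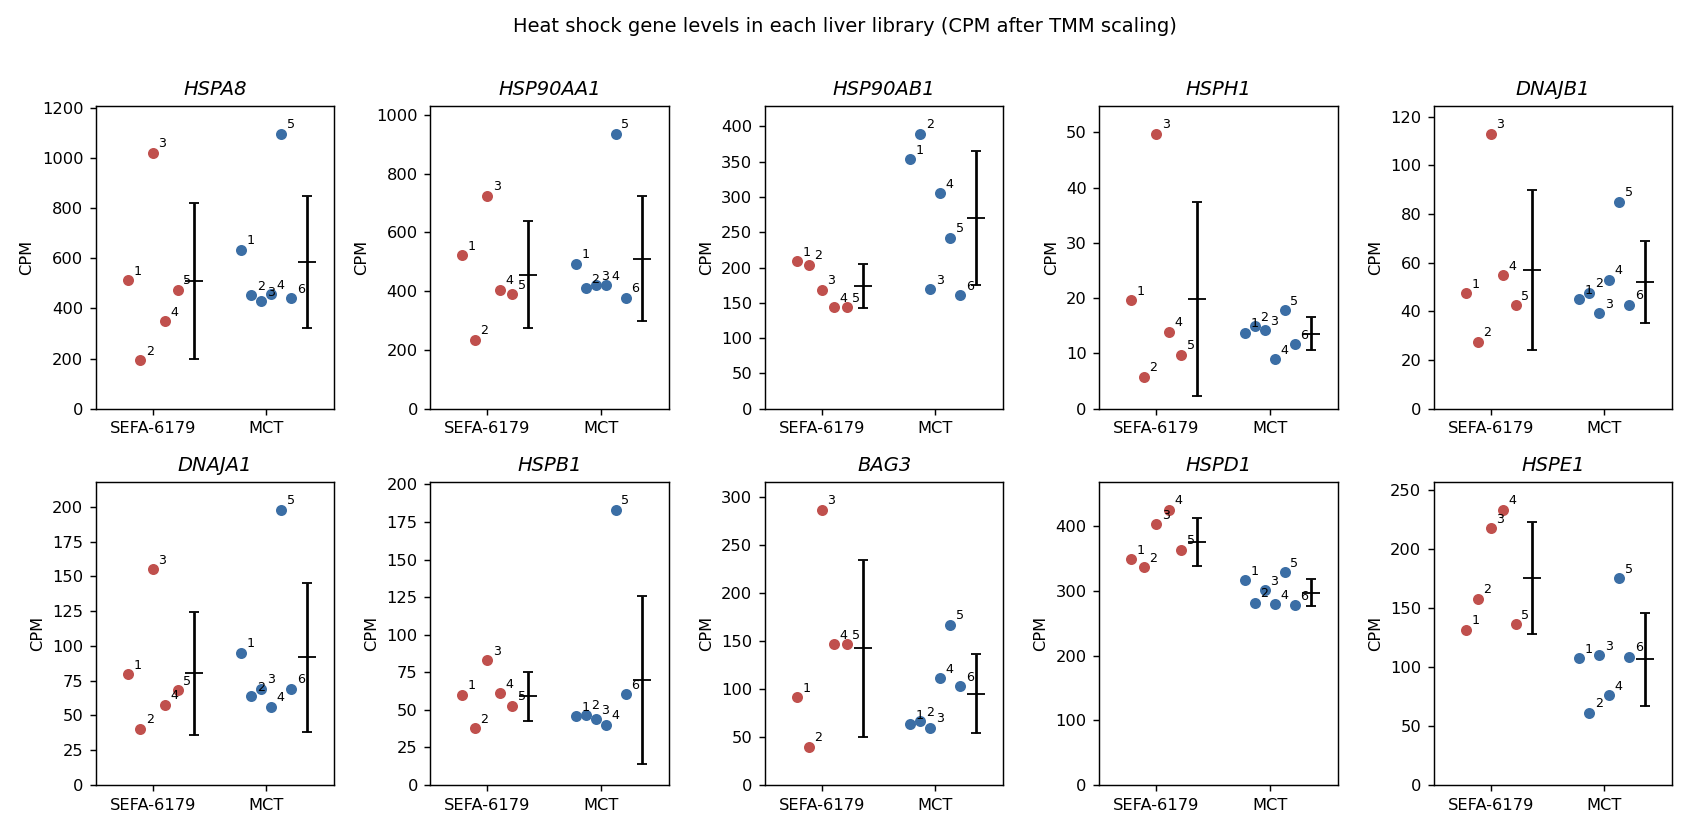
Levels of the 10 heat shock genes in each library (CPM after TMM scaling, linear axes from 0), with SEFA-6179 in red and MCT in blue. Numbers beside the points are replicates and bars are the mean ± SD. SEFA-6179 replicate 3 and MCT replicate 5 lie far above the others for HSPA8, DNAJA1 and DNAJB1, while HSPD1 is the gene in which every SEFA-6179 library lies above every MCT library.

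The high and low values of most of the 10 genes fell in a few libraries. SEFA-6179 replicate 3 held the highest or second-highest level for 9 of the 10 genes, all but HSP90AB1. MCT replicate 5 held the highest or second-highest level for 6 genes. Relative to the median of the 11 libraries, SEFA-6179 replicate 3 had a median ratio of 1.98 over the 10 genes and MCT replicate 5 one of 1.71, against 0.875 to 1.09 in 8 of the others. SEFA-6179 replicate 2 was lowest for 7 genes, with a median ratio of 0.583. So the lowest library and the library with the highest median ratio both belonged to SEFA-6179.

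**Figure D2:**
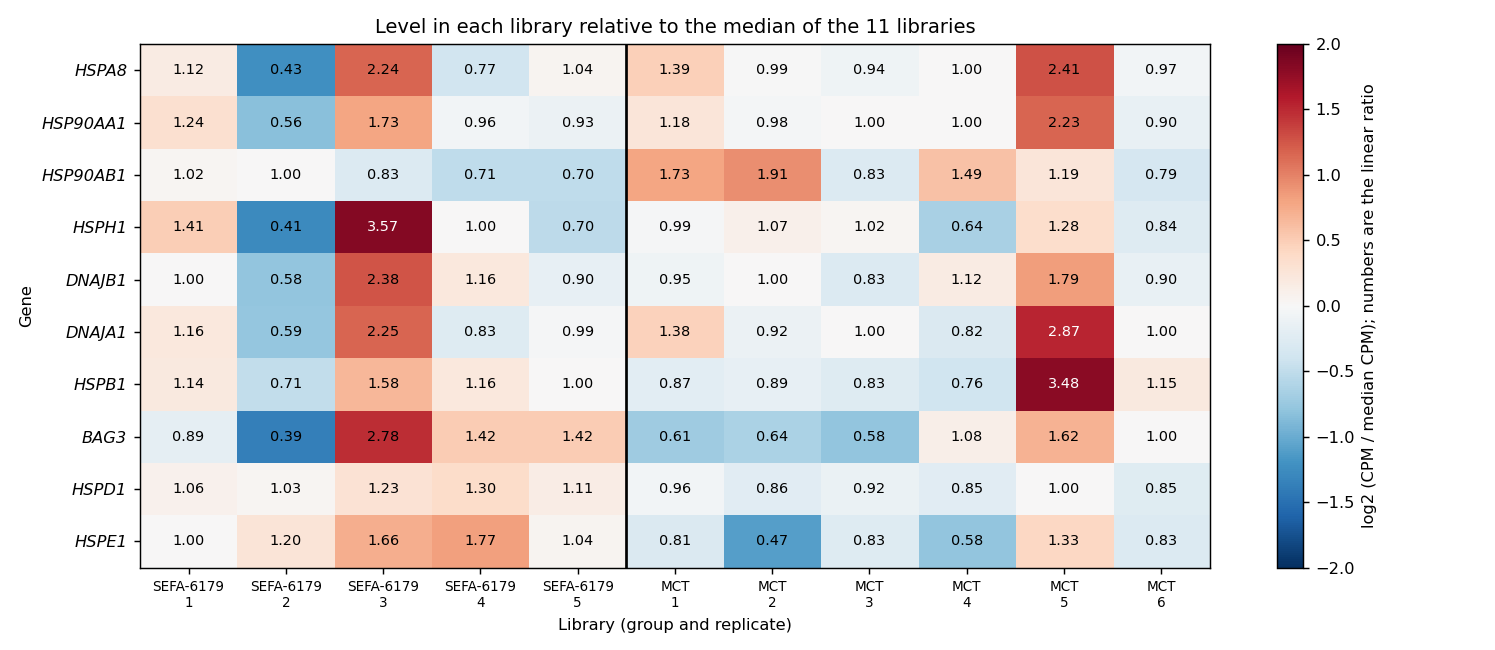
Level of each gene in each library divided by its median over the 11 libraries, coloured on a log2 scale with the linear ratio printed in the cell. The SEFA-6179 libraries are left of the black line and the MCT libraries right of it. The columns of SEFA-6179 replicate 3 and MCT replicate 5 are mostly red, and that of SEFA-6179 replicate 2 is mostly blue.

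HSPA8, the constitutive cytosolic Hsp70, was at 512, 194, 1022, 349 and 474 CPM in SEFA-6179 replicates 1 to 5, against 634, 453, 428, 456, 1098 and 440 CPM in MCT replicates 1 to 6. The groups overlapped, with 1 library far above the rest in each, and SEFA-6179 replicates 2 and 4 lay below every MCT library. Its log2 fold change was -0.20 ± 0.38 (SE, edgeR adjusted p = 0.891), with a 95% interval from -1.01 to 0.61. Leaving out MCT replicate 5 turned it to 0.08 ± 0.35.

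HSP90AA1, the stress-inducible cytosolic Hsp90, followed the same libraries. It was at 522, 235, 725, 405 and 389 CPM with SEFA-6179, against 494, 410, 421, 420, 936 and 377 CPM with MCT. The SD of the MCT libraries was 213 CPM (n = 6), and 42.7 CPM (n = 5) once replicate 5 was left out. The log2 fold change of HSP90AA1 was -0.16 ± 0.30 with all libraries and 0.10 ± 0.25 without that one (SE, edgeR adjusted p = 0.884 and 0.913). Its row lies on the unplaced scaffold AEMK02000452.1, from 917074 to 978230.

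HSP90AB1, the constitutive Hsp90, had another order of libraries. It was at 209, 204, 169, 144 and 144 CPM with SEFA-6179, against 354, 390, 169, 305, 242 and 161 CPM with MCT. MCT replicates 1, 2, 4 and 5 lay above every SEFA-6179 library, and MCT replicates 3 and 6 lay among them. The SEFA-6179 mean was 174 ± 31.5 CPM (SD, n = 5) and the MCT mean 270 ± 95.4 CPM (SD, n = 6). Its log2 fold change of -0.64 ± 0.24 had a 95% interval from -1.15 to -0.12 and did not pass by edgeR (unadjusted p = 0.0192, adjusted p = 0.335). Without MCT replicate 5 it was -0.67 ± 0.26. Markers of other cell types also differed in level between these libraries. All 8 tested cholangiocyte (bile duct) markers had lower fitted levels with SEFA-6179 (median log2 fold change -0.84). Of these, 4 had an unadjusted p below 0.05, where 5.52% of all tested genes were lower at that p. The lowest edgeR adjusted p among them was 0.0539. The 9 in the table summed to 40.7 to 80.3 CPM with SEFA-6179 and 56.5 to 144 CPM with MCT, and none was at 0 in every library. The 11 stellate cell and fibroblast markers summed to 581 to 897 CPM with SEFA-6179 and 688 to 1113 CPM with MCT, highest in MCT replicates 2 and 4. Of the 10 tested, 8 had a log2 fold change below 0 (median -0.13). An unadjusted p below 0.05 was found for 5 of the 10, beside 10.8% of all tested genes. Without MCT replicate 5, 6 of the 10 lay below 0 (median -0.05), and 5 had an unadjusted p below 0.05 (12.3% of all). With SEFA-6179 replicate 3 also left out, 5 lay below 0 (median -0.01) and 2 had such a p (12.5%). All 8 cholangiocyte markers stayed below 0 in both of these fits. Most other marker lists pointed up. Of those tested, 9 of 10 endothelial (median 0.35), 9 of 12 macrophage (0.39) and 8 of 12 hepatocyte markers (0.23) lay above 0. So did 8 of 8 T and NK cell (0.20), 4 of 4 neutrophil (0.44) and 1 of 5 erythroid markers (-0.42). EdgeR gave an unadjusted p below 0.05 for 3 endothelial, 2 macrophage, 1 hepatocyte, 1 T and NK cell and 1 erythroid marker. The part of these cell type markers in the HSP90AB1 values, or in those of HSPD1 and HSPE1, was not tested. In the deposited table HSP90AB1 overlaps SLC35B2 on the opposite strand, which had a mean count of 10.5 against 4388.5 for HSP90AB1. No source used here gives the strand setting of the counting, so reads of such pairs cannot be told apart.

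Per unit of length, HSP90AB1 was the lesser of the pair in every library, as it was in CPM. The annotated lengths are 6552 bases for HSP90AB1 and 4319 for HSP90AA1, and the size of the ratio depends on them. Whether they match the liver transcripts was not tested. Its FPKM was between 0.153 and 0.571 times that of HSP90AA1 in the SEFA-6179 libraries and between 0.170 and 0.627 times in the MCT libraries. The lowest ratios were those of SEFA-6179 replicate 3 and MCT replicate 5, the libraries with the most HSP90AA1.

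HSPH1, a large Hsp70 relative that acts as a nucleotide exchange factor, had the lowest FPKM, a count per length and depth, of the 10 genes. It was at 19.6, 5.78, 49.8, 13.9 and 9.73 CPM with SEFA-6179, against 13.7, 14.9, 14.2, 8.91, 17.9 and 11.7 CPM with MCT. SEFA-6179 replicates 1 and 3 lay above all MCT libraries and SEFA-6179 replicate 2 below them. The log2 fold change was 0.55 ± 0.44 (SE, edgeR adjusted p = 0.711) with all libraries and 0.64 ± 0.49 (adjusted p = 0.654) without MCT replicate 5. Its sign turned without SEFA-6179 replicate 3, at -0.14.

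DNAJB1 and DNAJA1 encode J-domain proteins, which deliver clients to Hsp70 and start its ATPase cycle. DNAJB1 was at 47.5, 27.4, 113, 55.0 and 42.5 CPM with SEFA-6179, against 45.0, 47.7, 39.3, 53.03, 85.1 and 42.7 CPM with MCT. DNAJA1 was at 79.8, 40.6, 155, 57.6 and 68.2 CPM with SEFA-6179, against 95.2, 63.6, 69.1, 56.3, 198 and 69.3 CPM with MCT. For both, the highest libraries were SEFA-6179 replicate 3 and MCT replicate 5, in opposite order, and the lowest was SEFA-6179 replicate 2.

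Neither co-chaperone passed. The log2 fold change of DNAJB1 was 0.13 ± 0.31 (SE, edgeR adjusted p = 0.914) with all libraries and 0.33 ± 0.30 without MCT replicate 5. Leaving out SEFA-6179 replicate 3 instead gave -0.27. That of DNAJA1 was -0.19 ± 0.39 (SE, edgeR adjusted p = 0.897), and 0.18 ± 0.30 without MCT replicate 5. Relative to HSPA8 per unit of length, DNAJA1 stayed within a narrow range, from 0.411 to 0.598 times with SEFA-6179 and from 0.353 to 0.515 times with MCT. The size of this ratio depends on the annotated lengths, 2298 bases for DNAJA1 and 6571 for HSPA8. DNAJB1 overlaps the unnamed gene ENSSSCG00000031299, which runs the other way and had a mean count of 2118 against 1025 for DNAJB1. That gene was highest in MCT replicate 5, at 198 CPM, and was at 91.5 CPM in SEFA-6179 replicate 3, against 115 to 140 CPM in the other SEFA-6179 libraries. Its part in the DNAJB1 values was not tested.

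HSPB1, a small heat shock protein that binds unfolding proteins without ATP, was at 60.0, 37.5, 83.1, 61.2 and 52.6 CPM with SEFA-6179, against 45.6, 46.8, 43.8, 40.04, 183 and 60.4 CPM with MCT. MCT replicate 5 was 3.48 times the median of all libraries, the largest ratio of the 10 genes in that library, while the other 5 MCT libraries lay between 40.04 and 60.4 CPM. The log2 fold change was -0.25 ± 0.40 (SE, edgeR adjusted p = 0.872) with it and 0.32 ± 0.19 (adjusted p = 0.528) without it. Limma with library weights also put it above 0 with all libraries, at 0.23.

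BAG3, an HSF1 target that links Hsp70 to HSPB1-type proteins and to autophagy, was at 91.3, 39.97, 287, 147 and 147 CPM with SEFA-6179, against 63.2, 66.3, 59.7, 112, 167 and 103 CPM with MCT. Only SEFA-6179 replicate 3 lay above every MCT library, and SEFA-6179 replicate 2 lay below all of them. Its log2 fold change was 0.58 ± 0.43 with a 95% interval from -0.35 to 1.51 (edgeR adjusted p = 0.673). Without MCT replicate 5 it was 0.82 ± 0.42 (adjusted p = 0.468), and without SEFA-6179 replicate 3 as well it was 0.40. Leaving out SEFA-6179 replicate 3 alone gave 0.16 (adjusted p = 0.928).

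**Figure D3:**
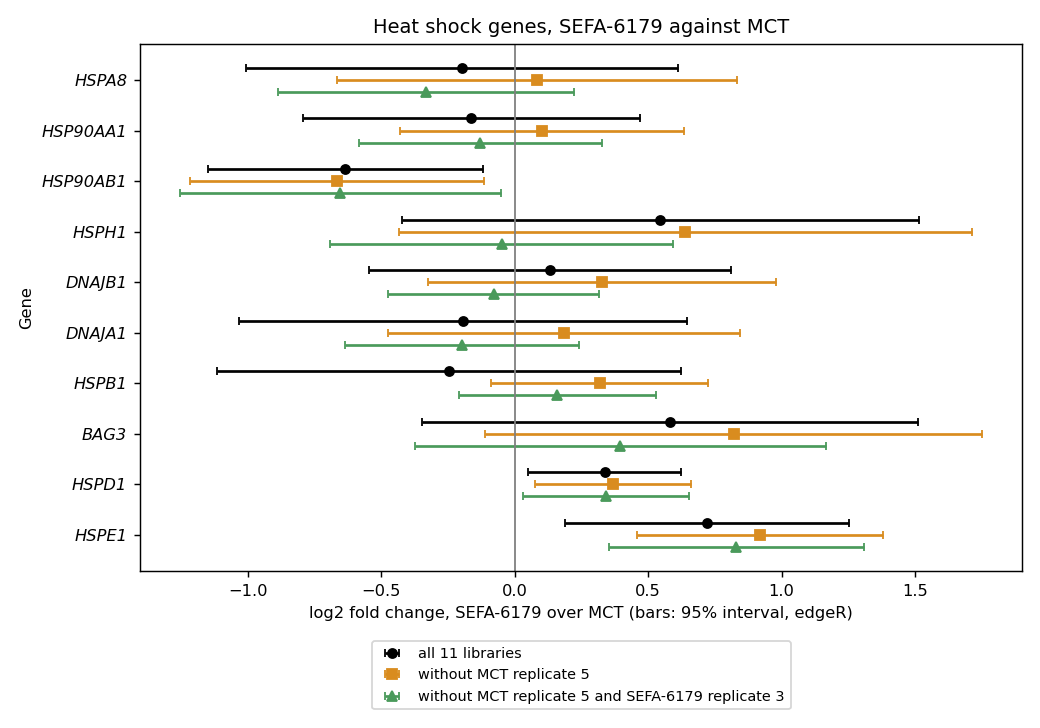
Log2 fold change of SEFA-6179 over MCT for each heat shock gene, with 95% intervals from edgeR, for all 11 libraries (black), without MCT replicate 5 (orange) and without MCT replicate 5 and SEFA-6179 replicate 3 (green). The intervals of HSP90AB1, HSPD1 and HSPE1 lie to one side of 0 in all 3 fits, and those of the other 7 genes include 0. These intervals are not adjusted for the number of genes tested.

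HSPD1 encodes the Hsp60 chaperonin of the mitochondrial matrix, and HSPE1 the co-chaperonin that caps it. In the deposited table they lie head to head on chromosome 15, HSPD1 on the minus strand from 101360094 to 101373527 and HSPE1 on the plus strand from 101373788 to 101376162. The annotated genes have 260 bases between them. No source used here names the genome build.

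HSPD1 was at 349, 337, 403, 426 and 364 CPM with SEFA-6179, against 316, 282, 301, 280, 329 and 278 CPM with MCT. Every SEFA-6179 library lay above every MCT library, MCT replicate 5 included, as they did for 0.673% of all tested genes. The SEFA-6179 mean was 376 ± 37.3 CPM (SD, n = 5) and the MCT mean 297 ± 21.4 CPM (SD, n = 6), a 1.26-fold difference. Its log2 fold change of 0.34 ± 0.13 (95% interval 0.05 to 0.62) did not pass by edgeR (unadjusted p = 0.0244, adjusted p = 0.360), nor by DESeq2 (adjusted p = 0.0816). Without MCT replicate 5 it was 0.37 ± 0.14 and did not pass by edgeR (unadjusted p = 0.0180, adjusted p = 0.296).

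HSPE1 showed a larger difference with a larger spread. It was at 132, 158, 218, 234 and 137 CPM with SEFA-6179, against 107, 61.4, 110, 76.3, 175 and 109 CPM with MCT. MCT replicate 5 was the 1 MCT library within the SEFA-6179 range, and without it every SEFA-6179 library lay above every MCT library, as for 1.11% of the genes tested then. The log2 fold change was 0.72 ± 0.25 (95% interval 0.19 to 1.25, edgeR adjusted p = 0.291), a 1.65-fold difference. Without MCT replicate 5 it was 0.92 ± 0.21 and still did not pass by edgeR (unadjusted p = 0.000827, adjusted p = 0.112).

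DESeq2 without MCT replicate 5, an alternative added after the values were seen, called both mitochondrial genes, HSPE1 with an adjusted p of 0.00626 and HSPD1 with 0.0380, among 316 calls (2.38% of genes). With SEFA-6179 replicate 3 also left out it called HSPE1 (adjusted p = 0.0217) among 445 (3.25%), and HSPD1 did not pass (adjusted p = 0.0973). Over all alternatives the log2 fold change of HSPE1 stayed between 0.60 and 0.92, and that of HSPD1 between 0.29 and 0.37.

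Per unit of length, HSPE1 mRNA exceeded HSPD1 mRNA in all 5 SEFA-6179 libraries and in 4 of 6 MCT libraries. The ratio of HSPE1 to HSPD1 in FPKM was 1.12, 1.39, 1.602, 1.62 and 1.11 with SEFA-6179, against 1.01, 0.646, 1.08, 0.808, 1.58 and 1.16 with MCT. It averaged 1.37 ± 0.25 with SEFA-6179 (SD, n = 5) and 1.05 ± 0.322 with MCT (SD, n = 6), and the groups overlapped. HSPE1 is short in the deposited table, at 871 bases against 2578 for HSPD1. Both have processed copies in mammalian genomes, and whether reads were shared with such copies was not tested.

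**Figure D4:**
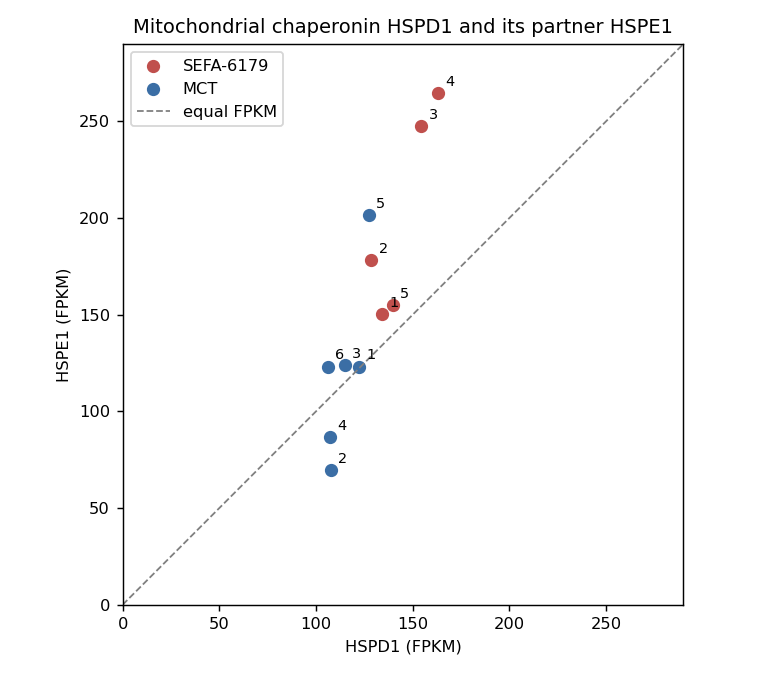
HSPE1 against HSPD1 in each library, both in the authors' FPKM, with replicate numbers beside the points and a dashed line of equal FPKM. All 5 SEFA-6179 libraries (red) lie above the line and to the right of every MCT library (blue), and MCT replicates 2 and 4 lie below the line.

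In FPKM, which compares genes per length, HSPE1 had the highest mean over all libraries, at 157 ± 61.8 (SD over the 11 libraries), followed by HSPD1 at 128 ± 19.0, HSP90AA1 at 111 ± 44.5 and HSPA8 at 83.1 ± 41.6. Next came HSPB1 at 52.1 ± 33.5, BAG3 at 44.0 ± 26.3, DNAJA1 at 37.3 ± 20.7 and HSP90AB1 at 34.2 ± 13.1, and the lowest were DNAJB1 at 19.4 ± 8.64 and HSPH1 at 4.47 ± 3.20. HSP90AA1 lay above HSPA8 and DNAJB1 above HSPH1 in 11 of 11 libraries. This order depends on the annotated lengths, 6571 bases for HSPA8 and 4319 for HSP90AA1. In CPM, HSPA8 had the higher means, 510 with SEFA-6179 and 585 with MCT, against 455 and 510 for HSP90AA1. Whether the lengths match the liver transcripts was not tested. The order within groups was not the same. HSPD1 averaged 144 FPKM and HSP90AA1 104 FPKM with SEFA-6179, but HSPD1 114 and HSP90AA1 117 FPKM with MCT. Without MCT replicate 5 the MCT libraries averaged 112 FPKM for HSPD1 and 105 FPKM for HSPE1. HSPB1 exceeded BAG3 in 7 of the 11 libraries, BAG3 exceeded DNAJA1 in 6 and DNAJA1 exceeded HSP90AB1 in 7, so these neighbours did not differ beyond their spread, while HSP90AB1 exceeded DNAJB1 in 10.

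Other chaperone and co-chaperone genes also had no call by edgeR, but a smaller share of them had a low unadjusted p. The table held 56 such genes, of which 55 were tested, 31 with a log2 fold change above 0 and 24 below it. EdgeR called 0, beside 0.219% of all tested genes. An unadjusted p below 0.05 was found for 2 of the 55, beside 10.8% of all tested genes and 3 of the 10 heat shock genes. Their median log2 fold change was 0.14, beside -0.0015 over all tested genes.

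DNAJB4, ST13, HSPA6 and HSPA1L were among those with the smallest p. DNAJB4, a J-domain protein, averaged 25.2 ± 3.91 CPM in the SEFA-6179 libraries and 20.5 ± 2.66 CPM in the MCT libraries. ST13, an Hsp70-interacting protein, averaged 319 ± 20.3 CPM in SEFA-6179 and 261 ± 33.5 CPM in MCT. HSPA6 and HSPA1L, of the Hsp70 family, were low, with means of 2.80 ± 2.22 and 1.06 ± 0.480 CPM with SEFA-6179, against 1.31 ± 0.623 and 0.470 ± 0.377 CPM with MCT (SD, n = 5 and 6 for these 4 genes). The edgeR adjusted p of the 4 lay between 0.456 and 0.486.

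HSF1, the master regulator of the response, had a SEFA-6179 mean of 31.2 ± 2.86 CPM and an MCT mean of 37.8 ± 8.46 CPM (SD, n = 5 and 6, edgeR adjusted p = 0.558), and its highest level, 50.7 CPM, was in MCT replicate 5. HSPA9, the mitochondrial Hsp70, was at 276 ± 49.8 CPM in SEFA-6179 and 231 ± 24.04 CPM in MCT, and TRAP1, the mitochondrial Hsp90, at 41.2 ± 6.37 CPM in SEFA-6179 and 45.0 ± 9.19 CPM in MCT (edgeR adjusted p = 0.579 and 0.832). Of the Hsp90 co-chaperones, FKBP4 was at 112 ± 36.5 CPM in SEFA-6179 and 98.7 ± 37.1 CPM in MCT, and AHSA1 at 57.6 ± 18.2 CPM in SEFA-6179 and 48.7 ± 14.1 CPM in MCT. STIP1 was at 18.8 ± 5.81 CPM in SEFA-6179 and 20.8 ± 5.05 CPM in MCT, and CHORDC1 at 21.3 ± 8.56 CPM in SEFA-6179 and 19.1 ± 3.08 CPM in MCT. HSPA4, an Hsp70 exchange factor, was at 55.3 ± 10.6 CPM in SEFA-6179 and 56.6 ± 10.2 CPM in MCT, and the collagen chaperone SERPINH1 at 71.5 ± 19.9 CPM in SEFA-6179 and 82.5 ± 18.3 CPM in MCT. The edgeR adjusted p of these 6 lay between 0.744 and 0.967.

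The chaperone list was spread over the libraries as follows. SEFA-6179 replicate 3 was highest for 15 and MCT replicate 5 for 17 of the 55 tested genes, where over all tested genes SEFA-6179 replicate 3 was highest for 9.27% and MCT replicate 5 for 17.7%. SEFA-6179 replicate 2 was lowest for 15 and MCT replicate 2 for 13, beside 11.1% and 13.8% of all tested genes. The summed level of the list was 3208 CPM in SEFA-6179 replicate 2 and lower still, at 3096 CPM, in MCT replicate 2. For FKBP4, SEFA-6179 replicate 3 held 167 CPM and MCT replicate 5 held 165 CPM, and the other 9 libraries lay between 66.3 and 116 CPM.

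Those libraries differed in the other genes that moved with them. In MCT replicate 5 the 24 interferon-stimulated genes summed to 17242 CPM, against 788 to 3543 CPM in the other MCT libraries and 545 to 2453 CPM with SEFA-6179, and 22 of the 24 had their highest level there. ISG15, a ubiquitin-like modifier, was at 5051 CPM in MCT replicate 5, against a median of 18.7 CPM in the other MCT libraries, and the antiviral genes RSAD2 and OASL were at 1390 and 47.4 CPM, against 12.2 and 0.791 CPM. The 17 immediate early genes also summed highest there, at 579 CPM, and lowest in SEFA-6179 replicate 2, at 146 CPM. The part of these genes in the heat shock values was not tested.

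In SEFA-6179 replicate 3 it was a list of genes of the endoplasmic reticulum (ER) that was high. The list named ER chaperones and also XBP1, DDIT3, ATF4, HERPUD1 and SEL1L, which are not chaperones. The 19 ER genes summed to 8851 CPM in that library, against 5034 to 6373 CPM in the other SEFA-6179 libraries and 4648 to 6204 CPM with MCT, and 16 of the 19 had their highest level there. HSPA5, the ER Hsp70, was at 960 CPM, and HSP90B1, the ER Hsp90, at 1068 CPM, against at most 462 and 643 CPM in any other library. MCT replicate 5 was within the range of the other MCT libraries for this sum, at 5861 CPM. Interferon-stimulated genes summed to 1167 CPM in SEFA-6179 replicate 3, within the range of the other SEFA-6179 libraries. Its macrophage markers summed to 3711 CPM, against 925 to 2769 CPM in the other SEFA-6179 libraries and 1576 to 2935 CPM with MCT, and all 12 were detected. SEFA-6179 replicate 3 also had the highest neutrophil marker sum, 12.8 CPM, and the highest T and NK cell sum, 37.4 CPM. Its hepatocyte markers had the lowest sum of the SEFA-6179 group, 115541 CPM. The hepatocyte sum was highest in SEFA-6179 replicate 2, at 220975 CPM, and lowest in MCT replicate 3, at 90294 CPM. Whether these markers had a part in the heat shock values was not tested.

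**Figure D5:**
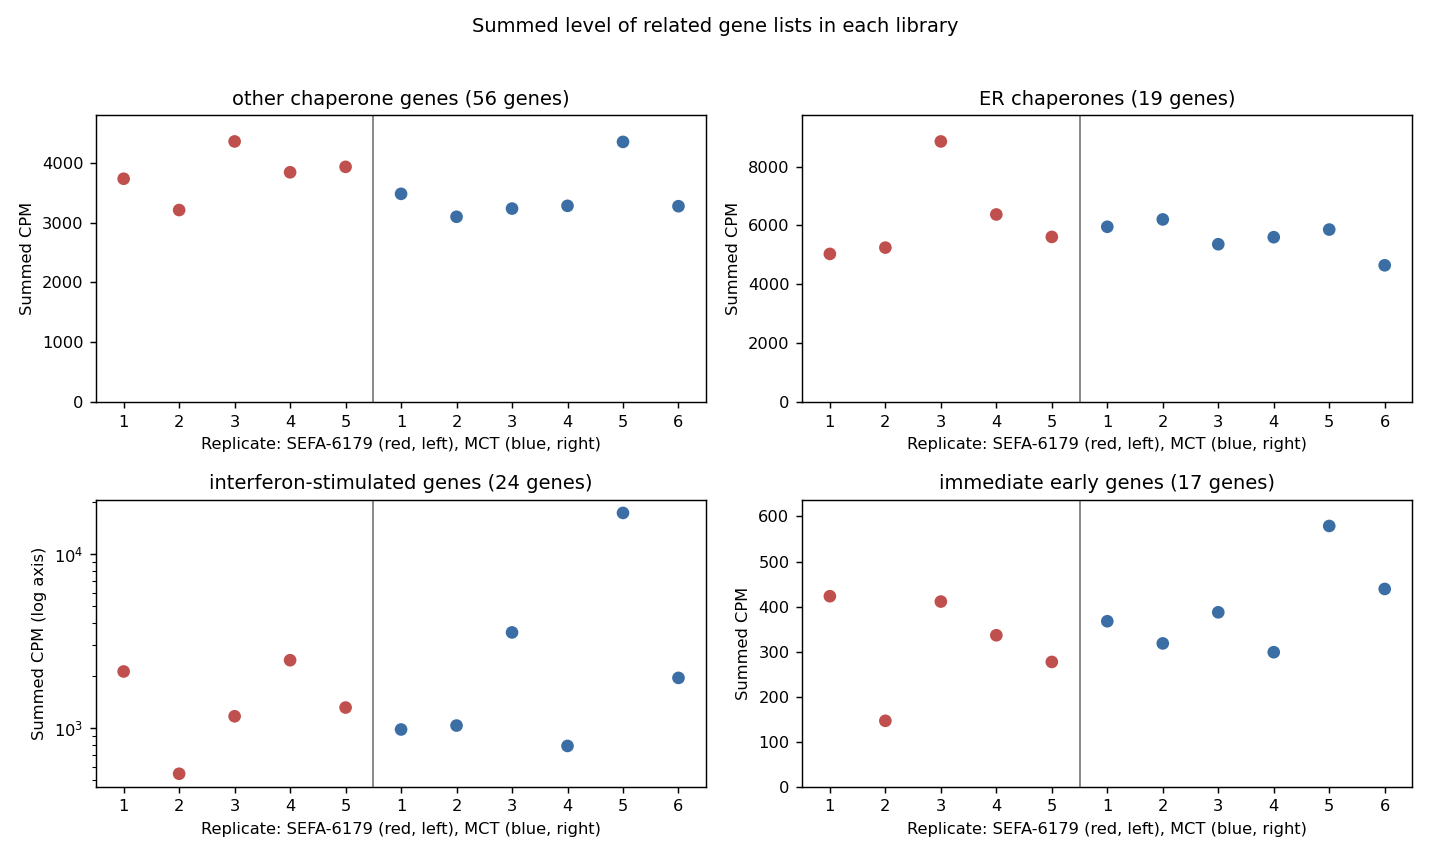
Summed CPM of 4 gene lists in each library, with SEFA-6179 in red on the left and MCT in blue on the right of each panel, and a log axis for the interferon-stimulated genes. Other chaperone genes are highest in SEFA-6179 replicate 3 and MCT replicate 5, and interferon-stimulated and immediate early genes in MCT replicate 5. The ER list, in the panel titled ER chaperones, is highest in SEFA-6179 replicate 3 and also holds genes that are not chaperones.

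Genes were also ranked by the Pearson correlation of their log2 CPM with the mean scaled level of the 10 heat shock genes, among 7222 genes with a symbol and a mean of at least 10 CPM. This is a description over few libraries that share the extremes above. Over 11 libraries the highest were GOLGA7 (0.957), CACYBP, DNAJB11, FKBP4, MRPL35, CCT8, P4HA2 and TMEM33 (0.892). Without MCT replicate 5, over 10 libraries, they were GOLGA7 (0.935), TOB2, HSP70.2, HSPA5, DNAJB11, MRPL35, IST1 and FSTL3 (0.901). GOLGA7, DNAJB11, an ER J-domain protein, and MRPL35, of the mitochondrial ribosome, were in both.

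HSP70.2 is the pig gene that RefSeq (Sscrofa11.1) lists with the synonyms HSPA1A and HSPA1B, the stress-inducible Hsp70. It was at 25.8, 15.3, 92.4, 43.6 and 28.5 CPM with SEFA-6179, against 26.3, 15.7, 23.1, 19.0, 33.9 and 23.1 CPM with MCT. SEFA-6179 replicate 3 was highest by a wide margin, and SEFA-6179 replicate 4 also lay above all MCT libraries. The log2 fold change was 0.81 ± 0.39 (SE, edgeR adjusted p = 0.481) with all libraries. It was 0.94 ± 0.41 (adjusted p = 0.387) without MCT replicate 5, 0.27 without SEFA-6179 replicate 3, and 0.40 without both. In the deposited table its row overlaps HSPA1L on the opposite strand.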

How the data were processed

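The deposited table gives, per the file headers, a raw read count and an FPKM value per gene and library. A further deposited column is a normalized signal, each library's count over its size factor, with group means of it. The authors also deposited their own log2 fold changes, each with a p-value, raw and adjusted. Per the submitters' processing notes the tools were DESeq2 1.20.0, featureCounts 1.5.0-p3, HISAT2 2.0.5 and StringTie 1.3.3b, with no roles named. No source used here names the genome build or annotation.

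EdgeR 4.0.16 (R 4.3.3) tested the counts (filterByExpr with a minimum count of 10, TMM, robust quasi-likelihood, two-sided, threshold 0.05) over all 11 libraries, which left 13671 of 22029 genes. The test was first tried on simulated data. Standard errors and 95% intervals were derived from edgeR's F statistic. Symbols came from the table, or, for 779 genes, through their identifiers in a reference list; reads of near copies may be shared or lost. P-values weigh the difference between the groups against the spread between these libraries.

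The heat shock genes and all lists were chosen with earlier results of these data known. Named beside them were chaperone genes past the threshold or with the 5 smallest p, 11 fixed genes, 3 interferon-stimulated genes and 8 most alike genes per ranking. Alternatives were DESeq2 1.42.0 (Wald test, and size factors alone), limma 3.58.1 with library weights, dropping the filter, requiring a mean of 50 reads, the replicate block and libraries left out. Promoter motifs were planned and are not analysed here. A gene that the naming rule picked is not reported here.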

Additional observations from a re-analysis of the deposited data

Results flagged for a closer look

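In 5 of the 20 gene groups examined (10 heat shock genes in 2 groups), 1 library lay far from the others, and in all 5 it was MCT replicate 5, the highest. Chance alone gives such a library in about 1 in 20 groups, and these 5 are not independent, since they share 1 library. HSPB1 was at 183 CPM there, against 60.4 CPM in the next MCT library, and HSP90AA1 at 936 CPM, against 494 CPM. DNAJA1 was at 198 CPM, against 95.2 CPM, HSPA8 at 1098 CPM, against 634 CPM, and DNAJB1 at 85.1 CPM, against 53.03 CPM. The measure was the gap to the nearest library as a share of the group's range, from 0.693 for HSPA8 to 0.858 for HSPB1. In SEFA-6179 no gene met this rule, although SEFA-6179 replicate 3 was highest for 7 of the 10 genes within its group. It was at 49.8 CPM for HSPH1, against 19.6 CPM in the next SEFA-6179 library, and at 113 CPM for DNAJB1, against 55.0 CPM. Missing the rule does not mean that this library lay near the others.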

How the results depend on the processing

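No heat shock gene was called by edgeR under any setting, with leave-one-out counts from 0 to 0. DESeq2 called 2 without MCT replicate 5, and 1 without both MCT replicate 5 and SEFA-6179 replicate 3 (both settings added after the data were seen). Over all genes, 30 with edgeR, the count was 276 with DESeq2, 60 with limma, 8 with the replicate block, and 0 to 53 leaving out single libraries (0 without SEFA-6179 replicate 5 or MCT replicate 4, 1 without MCT replicate 1, 9 without SEFA-6179 replicate 1 or MCT replicate 2, 16 without MCT replicate 3, 53 without SEFA-6179 replicate 3). Leaving out MCT replicate 5 together with SEFA-6179 replicate 4 gave 1, together with SEFA-6179 replicate 3 gave 73, and with DESeq2 316 and 445 for the 2 added settings. Deviations of same-numbered libraries from their group means had r from -0.15 to 0.20 over 5 pairs. Only replicate 3, at 0.20, lay above the threshold of 0.1 set for pairing. With litter and batch not given, these values cannot decide whether the numbers pair animals. The block called 0 of the 10.

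HSP90AB1, HSPD1, HSPE1 and BAG3 kept their sign in all 21 alternatives, BAG3 at 0.16 without SEFA-6179 replicate 3 against 0.58 with it; 6 genes did not. Without SEFA-6179 replicate 2 the log2 fold change was 0.01 for HSPA8 and 0.0027 for HSP90AA1. Without MCT replicate 5 it was 0.083 for HSPA8 (DESeq2 0.082), 0.10 for HSP90AA1, 0.18 for DNAJA1 and 0.32 for HSPB1, the last 3 by edgeR and by DESeq2 alike. With SEFA-6179 replicate 4 also left out these were 0.20, 0.15, 0.29 and 0.31. Without SEFA-6179 replicate 3 it was -0.14 for HSPH1 and -0.27 for DNAJB1. Without both MCT replicate 5 and SEFA-6179 replicate 3 it was -0.050 for HSPH1 (DESeq2 -0.049), -0.079 for DNAJB1 and 0.16 for HSPB1, the last 2 with either tool. The replicate block gave -0.044 for DNAJB1, and limma 0.23 for HSPB1. Leaving out 1 library, or MCT replicate 5 with another, gave -0.61 to 0.20 for HSPA8, -0.39 to 0.15 for HSP90AA1, -0.14 to 0.78 for HSPH1, -0.27 to 0.34 for DNAJB1, -0.58 to 0.29 for DNAJA1 and -0.41 to 0.32 for HSPB1. Beyond the libraries left out, the cause was not tested. HSPH1, at 5.78 CPM in its lowest library, had the fewest reads.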
